A study of Rattus norvegicus with 22 samples.

Results

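The genes described here encode the proteins of the cytoplasmic ribosome, measured by RNA-seq in the nucleus accumbens (NAc) of 22 male Wistar rats. They were chosen by symbol: names beginning with Rpl or Rps followed by a digit, together with Rplp0, Rplp1, Rplp2 and Rpsa, without the S6 kinase genes whose symbols begin with Rps6k. Of the 17310 gene symbols listed, 85 matched and 77 had at least 1 read in at least 1 rat. The 77 comprise 43 genes named for the large subunit, 31 named for the small subunit (Rps19bp1 among them), the stalk genes Rplp0 and Rplp1, and Rpsa. The label held for all but Rps19bp1, whose product binds a ribosomal protein and regulates a deacetylase and which is no structural part of the ribosome. It was tested in neither experiment. Conversely, the symbol rule missed genes such as Fau and Gnb2l1 (now called Rack1), which encode small subunit proteins under other names.

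Experiment 1 compared 5 rats that chose freely between water and a bottle of 6 v/v % ethanol (EtOH) for 8 weeks with 5 rats that had water alone. In experiment 2 all 12 rats had 6% EtOH and water to drink for 4 weeks before and 2 weeks after a gavage period of 3 weeks. During that period 6 rats received EtOH by gavage, at 2.5 g/kg in a 30 v/v % solution 2 times a day, and 6 rats received water by gavage. The control rats of experiment 2 were therefore EtOH drinkers as well, and the comparison concerns the added forced dose. All were adult males of the outbred Wistar stock, no other genotype is given, and tissue was taken within minutes of removing the EtOH bottles. The libraries held polyadenylated RNA from NAc core and shell, with 1 library for each rat. In such bulk tissue, fewer cells of a type and less RNA in each cell cannot be told apart.

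The ribosome is built from ribosomal RNA and about equal amounts of each ribosomal protein, so the genes for these proteins are expressed together in every cell type. Their mRNAs begin with a C followed by a run of pyrimidines, the 5′ terminal oligopyrimidine (TOP) tract, through which signalling by the kinase mTOR sets how actively they are translated. In neurons, local synthesis of proteins near synapses depends on ribosomes, and ribosomal protein mRNAs are also found in dendrites and axons. Mammalian genomes carry many processed pseudogenes of these short and abundant mRNAs. A read that matches a gene and a pseudogene equally well is aligned to several places, and such reads were left out of the counts described here. For each read on a gene there were 2.22 to 2.57 alignments of this kind in experiment 1 and 1.29 to 1.83 in experiment 2.

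The transcription start sites of a few members are shown because these genes moved together, or against the rest, among the rats described below. Each window holds 30 bases before the annotated start and 15 bases from it, 5′ to 3′ on the strand of the gene, from RefSeq with coordinates of the GRCr8 build. Capitals mark the run of pyrimidines around the start. Rplp0, Rpl35, Rps15 and Rpl19 varied together in experiment 2, and Rps24 and Rps4x varied the other way.
Rplp0 (stalk, chr12:46718376-46718420, minus strand): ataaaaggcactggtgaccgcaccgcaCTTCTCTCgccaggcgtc
Rpl35 (large subunit, chr3:43165907-43165951, minus strand): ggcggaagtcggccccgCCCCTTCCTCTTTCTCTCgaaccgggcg
Rps15 (small subunit, chr7:10068101-10068145, minus strand): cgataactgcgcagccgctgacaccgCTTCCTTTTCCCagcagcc
Rpl19 (large subunit, chr10:83519034-83519078, plus strand): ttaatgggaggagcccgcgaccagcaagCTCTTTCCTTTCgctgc
Rps24 (small subunit, chr16:96487-96531, plus strand): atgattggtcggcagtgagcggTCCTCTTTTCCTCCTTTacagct
Rps4x (small subunit, chrX:71342907-71342951, minus strand): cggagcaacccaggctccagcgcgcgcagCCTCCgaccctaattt
A pyrimidine run was present in the genes that varied together and in those that varied the other way, shortest in Rps4x. Of the 77 members, 58 could be matched to a single promoter window of 250 bases before to 50 bases after the start, Rps19bp1 not counted. A C followed by 4 pyrimidines lay within 5 bases before to 10 bases after the start in 37 of these 58 members (63.8%), against 17% of all 33469 promoters in the table. CTTTCC or CTCTTT, 2 pyrimidine words that can overlap, lay within 25 bases of the start on the gene strand in 28 members (48.3%), against 3.98% of all promoters. On both strands the shares were 48.3% and 7.61%. The ETS-type word CCGGAAG occurred on either strand within the whole window in 17 members (29.3%) and in 8.75% of all promoters. These are matches of letters and not mapped binding sites.

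The number of reads on genes was 2962291 to 5247386 per rat in experiment 1 and 6713617 to 8765472 in experiment 2, and every pair of rats of a group differed by more than sampling noise. All 10 defining markers of NAc projection neurons, among them Drd1, Drd2 and Ppp1r1b, were present and tested in both experiments. Markers of cortical glutamatergic neurons were uneven, with summed levels in experiment 1 from 91.7 to 689 counts per 1000000 reads (CPM) in the water rats and from 240.0 to 650.3 CPM in the drinkers. In experiment 2 the sums ranged from 1.25 to 523 CPM after water gavage and from 2.61 to 397 after EtOH gavage. The labels name only the NAc.

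The counts did not cover the family evenly. Rpl35a, Rpl36, Rpl37a-ps1, Rpl38, Rpl39, Rplp2, Rps19 and Rps9 were listed at 0 in all 22 rats, although 7 of the 8 encode core proteins of the ribosome and Rpl37a-ps1 is a pseudogene. Rplp2 is a partner of Rplp1 in the stalk, and mutations of the human counterparts of Rps19 and Rpl35a cause Diamond-Blackfan anaemia. A listing at 0 thus gave no measure of the expression of these genes. In experiment 1, 7 of the 77 members had no read and 22, those included, had fewer than 10 reads in every rat. In experiment 2, 3 members had no read and 15 had fewer than 10 reads in every rat.

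The number of further gene symbols derived from a member's own, such as Rpl21-ps1 or Rpl21l2, was counted in the RefSeq annotation of GRCr8 as a rough measure of copies. The 7 core genes listed at 0 in every rat had a median of 17 such symbols (range 5 to 20). The following counts leave out the paralogues and Rps19bp1. The 21 genes with reads that passed the expression filter in neither experiment had a median of 16 (6 to 36), and they included Rps2, Rpl12, Rps6 and Rpl32. A median of 14.5 (9 to 25) was found for the 10 genes tested in a single experiment and of 12 (1 to 26) for the 39 core genes tested in both. The ranges overlap widely, and how many copies were in the annotation of the authors is not given in the sources used here.

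A gene was tested when its mean count, scaled by library, lay above the median of all listed genes, which kept 8655 genes in each experiment. Of the members, 42 were tested in experiment 1 and 49 in experiment 2. In total 40 were tested in both, 2 in experiment 1 only, 9 in experiment 2 only and 26 in neither. The tested members held 97.7% of the members' reads in experiment 1 and 99.1% in experiment 2. In both experiments Rpl3, a large subunit protein near the catalytic centre, took the most reads, with 12.5% and 13.5% of the members' total. The 5 members with the most reads took 36.2% in experiment 1 (Rpl3, Rpl4, Rplp0, Rps16 and Rps3). These shares do not account for transcript length.

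Several members had far more reads in 1 experiment than in the other. Rpl31 and Rpl37, both of the large subunit, had 0 reads in every rat of experiment 1. In experiment 2 they had a median of 263.5 and 294 reads per rat. Rps15a had a median of 7.5 reads in experiment 1 and 476.5 in experiment 2. The opposite held for Rpl34, with 131.5 and 11 reads, and for Rpl12, with 23 and 0. Rps4x, the X-linked copy of a small subunit gene, had a median of 342.5 reads in experiment 1 and 2947 in experiment 2, a gap far beyond the difference in depth. Strand was lost in the library type of experiment 1 and kept in that of experiment 2, the reads of experiment 2 were longer, and the rats differed. These conditions cannot be told apart, so all further values are given within an experiment.

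**Figure D1:**
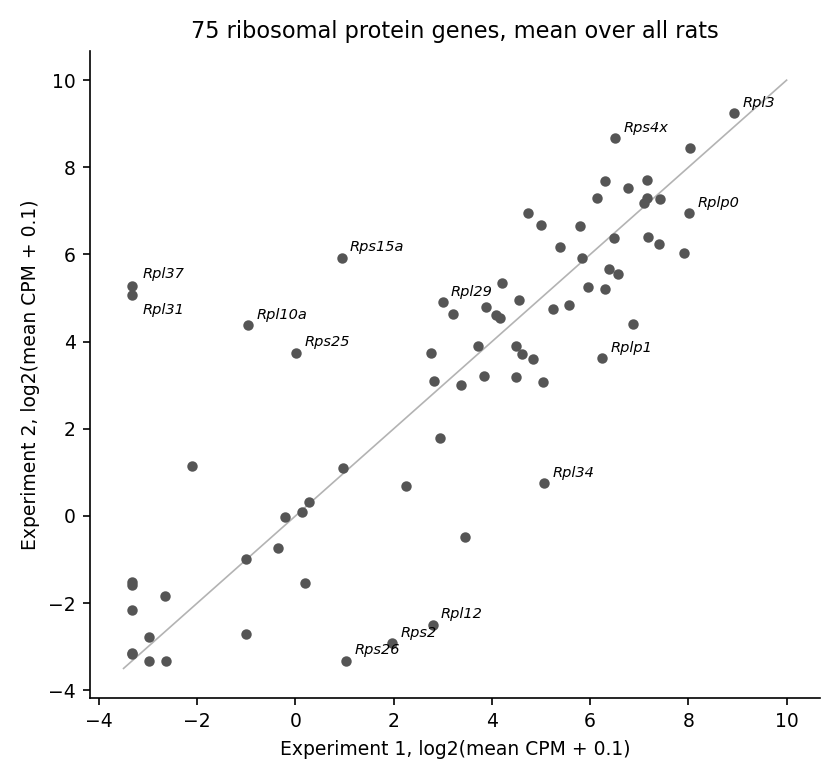
Mean CPM of 75 of the 77 members over the 10 rats of experiment 1 (horizontal) and the 12 rats of experiment 2 (vertical), both as log2 of the mean plus 0.1, with 1 point per gene and a line where both are equal. Genes lie on both sides of the line, some well away from it, such as Rps14 (26.6 and 123 CPM) and Rps15 (117 and 21.1 CPM). Rpl31 and Rpl37 are among the genes at 0 CPM on the horizontal axis, and Rps26 is among those at 0 CPM on the vertical axis.

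The first question was whether voluntary drinking altered the members. In experiment 1, no member passed an FDR of 0.05 in edgeR's quasi-likelihood test, against 0.0% of all tested genes. The fitted level was nevertheless higher in the EtOH drinkers for 38 of the 42 tested members (90.5%), against 49.5% of all tested genes. The 4 with a lower fitted level were Rpl13a, Rpl27, Rpl27a and Rpl30, all of the large subunit. The median log2 fold change of the members was 0.11, against -0.0012 for all tested genes, and the members ranged from -0.67 (Rpl30) to 0.29 (Rps29). The median standard error of a single member was 0.09.

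By subunit, 21 of 25 tested large subunit genes and 15 of 15 small subunit genes, Rpsa included, had a higher fitted level in the drinkers, with median log2 fold changes of 0.10 and 0.14. Rpsa encodes the protein also known as the laminin receptor. Both tested stalk genes were higher as well. An unadjusted P under 0.05 was found for 9 members (21.4%), each higher in the drinkers, against 5.58% of all tested genes in either direction, 3.0% higher and 2.58% lower. The 9 were Rpl7, Rplp0, Rpl23, Rps29, Rps4x, Rpl19, Rps15, Rpl35 and Rpl4. Their FDR was 0.823 to 0.866, so none passed the correction. DESeq2 was run without the expression filter, with all 70 members that had a read in experiment 1. It gave 0 members at an FDR under 0.05 and 7 with an unadjusted P under 0.05. Of 14022 genes with a P in that run, 365 were higher and 267 lower with an unadjusted P under 0.05.

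Rpl7, a large subunit protein, had the lowest P. In the water rats 1 to 5 it stood at 145, 139, 126, 114 and 134 CPM, and in the EtOH rats 1 to 5 at 156, 141, 161, 162 and 156 CPM. Drinker 2 lay below water rat 1, and the other drinkers lay above every water rat. The means were 131 ± 12.2 CPM (SD, n = 5) and 155 ± 8.53 CPM (SD, n = 5), and the log2 fold change was 0.24 ± 0.07 (SE), with an unadjusted edgeR P of 0.00553 and an FDR of 0.823. The 2-sided exact permutation test of this single gene gave p = 0.0159, where 0.00794 is the smallest value that 5 against 5 rats allow.

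Rplp0 encodes the protein that anchors the stalk, the lateral arm that recruits elongation factors. Its levels were 214, 250, 237, 230 and 263 CPM in the water rats and 253, 265, 268, 297 and 299 CPM in the drinkers. Drinker 1 lay below water rat 5, the single overlap between the groups. The log2 fold change was 0.21 ± 0.07 (SE), with an unadjusted edgeR P of 0.00902 and an FDR of 0.823. Rplp1, the other stalk protein with reads, stood at 91.4, 79.7, 68.5, 56.7 and 65.9 CPM in the water rats and at 76.8, 68.3, 69.4, 94.4 and 82.6 CPM in the drinkers. The groups of Rplp1 overlapped over most of their range, and its log2 fold change was 0.12 ± 0.12 (SE), with an unadjusted P of 0.358.

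Rpl23, a large subunit protein that also binds the p53 regulator Mdm2 when it is free of the ribosome, stood at 109, 101, 101, 91.3 and 101 CPM in the water rats. The drinkers had 114, 114, 104, 134 and 122 CPM. Only drinker 3 lay within the range of the water rats. On the log2 scale the fold change was 0.23 ± 0.08 (SE), with an unadjusted edgeR P of 0.00957 and an FDR of 0.823. Rpl5 and Rpl11, which bind Mdm2 together with the 5S RNA, differed less, by 0.03 ± 0.07 (SE) and 0.11 ± 0.08 (SE) on the log2 scale, with unadjusted P of 0.697 and 0.165.

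Rps29, a small zinc-binding protein of the small subunit, had the largest log2 fold change of the tested members. It stood at 26.8, 29.5, 28.3, 29.1 and 34.1 CPM in the water rats and at 40.1, 31.1, 38.8, 33.8 and 37.4 CPM in the drinkers. Drinkers 2 and 4 lay within the water range, and the other drinkers lay above it. The log2 fold change was 0.29 ± 0.11 (SE), with an unadjusted edgeR P of 0.0175 and an FDR of 0.861. Rps4x stood at 85.2, 85.6, 86.7, 70.6 and 94 CPM in the water rats and at 98.4, 94.7, 89, 107 and 95.1 CPM in the drinkers. Only drinker 3 lay within the range of the water rats. For Rps4x the log2 fold change was 0.19 ± 0.08 (SE), with an unadjusted P of 0.0324 and an FDR of 0.866.

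The members with the most reads showed the same small differences. Rpl3 stood at 465, 499, 446, 436 and 496 CPM in the water rats and at 517, 480, 492, 535 and 514 CPM in the drinkers. Drinkers 1, 4 and 5 lay above every water rat. On the log2 scale the fold change was 0.12 ± 0.06 (SE), with an unadjusted edgeR P of 0.0582. For Rpl4, a protein that lines the exit tunnel of the nascent chain, the values were 264, 244, 252, 248 and 252 CPM against 288, 246, 269, 288 and 285 CPM, and the log2 fold change was 0.13 ± 0.06 (SE) with an unadjusted edgeR P of 0.0469. Here drinker 2 lay within the water range and the other drinkers lay above it. Rps16 (0.14 ± 0.10, SE) and Rps3 (0.05 ± 0.08, SE), 2 small subunit proteins, had unadjusted P of 0.179 and 0.483.

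None of the 42 members separated the groups completely, against 0.439% of all tested genes that did so with higher levels in the drinkers and 0.404% with lower levels. Together the 77 members took 0.387, 0.389, 0.361, 0.327 and 0.377% of the reads assigned to genes in the water rats and 0.407, 0.383, 0.390, 0.423 and 0.408% in the drinkers. Water rat 4 was the lowest and drinker 4 the highest, and drinker 2 lay within the water range. The mean share was 0.368% ± 0.0256 (SD, n = 5) against 0.402% ± 0.0160 (SD, n = 5). Rat by rat, 3 of the 42 tested members lay above their own median in water rat 4 and 32 in each of drinkers 4 and 5. Water rat 4 alone was the lowest of the 10 rats for 25 members, a count not made over all tested genes.

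Without water rat 4 the number of members with an unadjusted P under 0.05 was 5, the number with a higher fitted level 32 and the median log2 fold change 0.09. Of all 8655 tested genes, 4354 then had a higher level, and such a P was found for 204 higher and 184 lower genes. Without drinker 1 or drinker 4 the number of members with such a P was also 5. Over all tested genes it was found for 286 higher and 212 lower genes without drinker 1, and for 204 and 176 without drinker 4. Summed endothelial markers kept the groups narrowly apart, at 247 to 283 CPM in the water rats and 284 to 329 CPM in the drinkers. The sum covers 4 of the 5 listed genes, the ones found in the files. All 4 had a higher fitted level in the drinkers, although the log2 fold changes of Vwf and Pecam1 were only 0.0066 and 0.069. The summed exit tunnel genes, with 5 of 9 tested, also kept the groups narrowly apart, at 462 to 506 and 508 to 554 CPM. So did the summed stalk genes, at 287.2 to 329.72 and 329.78 to 391.53 CPM. Other sums of members overlapped, with 185 to 233 and 211 to 231 CPM for the 5S genes. Genes at the mRNA channel summed to 169 to 222 and 194 to 229 CPM, and Diamond-Blackfan anaemia genes to 235 to 284 and 272 to 297 CPM. No such sums were made over all tested genes. Summed choroid plexus and ependymal markers, with 1 of 5 tested, were at 12.7 to 38.7 against 31.5 to 49.8 CPM. Foxj1, Ccdc153, Folr1 and Kl had higher means in the drinkers, whereas Ttr went the other way, from 3.46 to 0.534 CPM. Of the 10 projection neuron markers, 9 were lower in the drinkers. The part of these cell types in the members' shift was not tested.

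**Figure D2:**
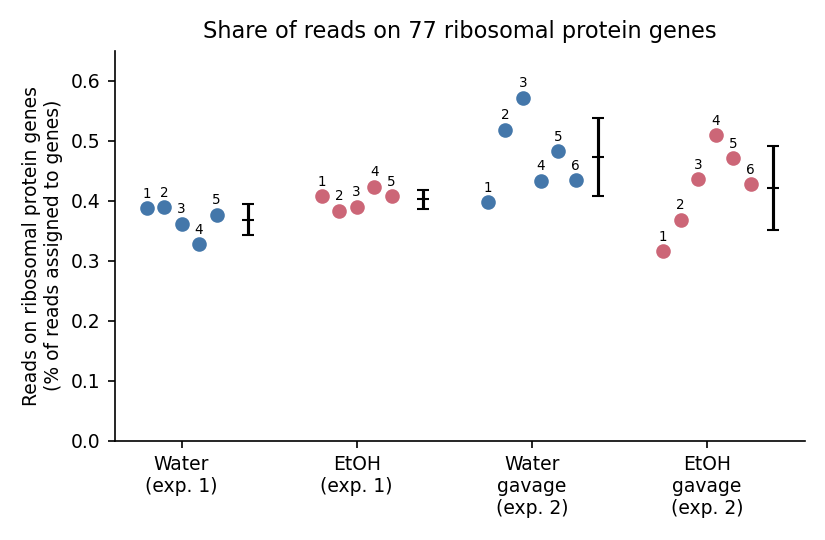
Share of the reads assigned to genes that fell on the 77 members (%, vertical axis from 0) in each rat, by group, with the replicate number above each point and the mean ± SD beside it. In experiment 1 the drinkers sit at 0.383 to 0.423% and the water rats at 0.327 to 0.389%, and in experiment 2 both groups spread over a wider range, from 0.316 to 0.572%.

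The comparison of experiment 2 asked what forced EtOH added in rats that all drank. No member passed an FDR of 0.05 in edgeR's quasi-likelihood test, the lowest being 0.675, and none had an unadjusted P under 0.05, against 1.33% of all tested genes (0.705% higher and 0.624% lower). DESeq2, run without the expression filter on 74 members, gave 0 and 1. Of 14110 genes with a P in that run, 158 were higher and 157 lower with an unadjusted P under 0.05. The fitted level was lower after EtOH gavage for 42 of the 49 tested members and higher for 7 (14.3%), against 50.1% of all tested genes with a higher level. The median log2 fold change was -0.20, against 0.00088 for all tested genes, and the members ranged from -1.07 (Rps15) to 0.52 (Rps24). Of the large subunit genes 27 of 30 and of the small subunit genes 13 of 17, with Rpsa among the 13, had a lower fitted level, as did both stalk genes. No member separated the groups, against 0.0116% of all tested genes with lower levels and 0.0% with higher levels.

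The direction held with each rat left out, with medians of -0.28 to -0.14, but hardly with a covariate. The percentage of reads lying outside annotated genes was entered as a covariate. With it, 21 of the 49 members and 3987 of all 8655 tested genes had a higher fitted level. The median log2 fold change of the members was then -0.02. In another fit the 3 rats with the largest such share (water gavage 1, EtOH gavage 1 and 2) were left out, a choice made after seeing the data. There 12 members and 3962 of all 8655 tested genes had a higher level, and the members' median was -0.14. The number of members with a higher level was 11 without water gavage rat 3 or without EtOH gavage rat 1, and 12 without water gavage rat 5. Of all 8655 tested genes, 4295, 4189 and 4396 had a higher level in these fits, in the same order. Removal of water gavage rat 1 gave 4 members with an unadjusted P under 0.05, and removal of EtOH gavage rat 4 gave 6. Such a P also became more frequent over all 8655 tested genes. Without water gavage rat 1 it was found for 472 higher and 302 lower genes, and without EtOH gavage rat 4 for 256 and 520.

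Among the 5 members with the lowest P, Rps24 alone was higher after EtOH gavage. Rps24, a small subunit protein mutated in some patients with Diamond-Blackfan anaemia, ranged from 6.18 to 14 CPM with a median of 10.6 after water gavage. After EtOH gavage it ranged from 11 to 25.7 CPM with a median of 13.5. EtOH gavage rats 1, 2 and 5 lay above every water gavage rat, and the other rats of both groups overlapped. The log2 fold change was 0.52 ± 0.26 (SE), with an unadjusted edgeR P of 0.066 and an FDR of 0.675.

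The next in order were lower after EtOH gavage. Rpl18, a large subunit protein, ranged from 22.8 to 69.2 CPM (median 48.9) after water gavage and from 7.83 to 51.5 CPM (median 30.3) after EtOH gavage. The lowest rats were EtOH gavage 1 and 2 and water gavage 1, in both groups alike. On the log2 scale the fold change was -0.73 ± 0.40 (SE), with an unadjusted edgeR P of 0.0899. Rpl31, which sits near the exit of the nascent chain, ranged from 26.8 to 49.3 CPM (median 38.1) and from 13 to 34.6 CPM (median 33.6). EtOH gavage rats 1 and 2 lay below every other rat, whereas the remaining EtOH gavage rats lay close together within the water gavage range. The log2 fold change of Rpl31 was -0.45 ± 0.25 (SE), with an unadjusted edgeR P of 0.0989.

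Rplp0 ranged from 55.6 to 299 CPM (median 133) after water gavage and from 34.6 to 180 CPM (median 92.5) after EtOH gavage. Water gavage rats 2 and 3 were the highest and EtOH gavage rats 1 and 2 the lowest. The log2 fold change was -0.76 ± 0.44 (SE), with an unadjusted edgeR P of 0.105. Rpl41, the shortest ribosomal protein, ranged from 140 to 208 CPM (median 172) and from 94.1 to 193 CPM (median 141). Its groups overlapped over most of their range, and the log2 fold change was -0.29 ± 0.17 (SE), with an unadjusted edgeR P of 0.111. The FDR was 0.675 for all 5 genes.

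**Figure D3:**
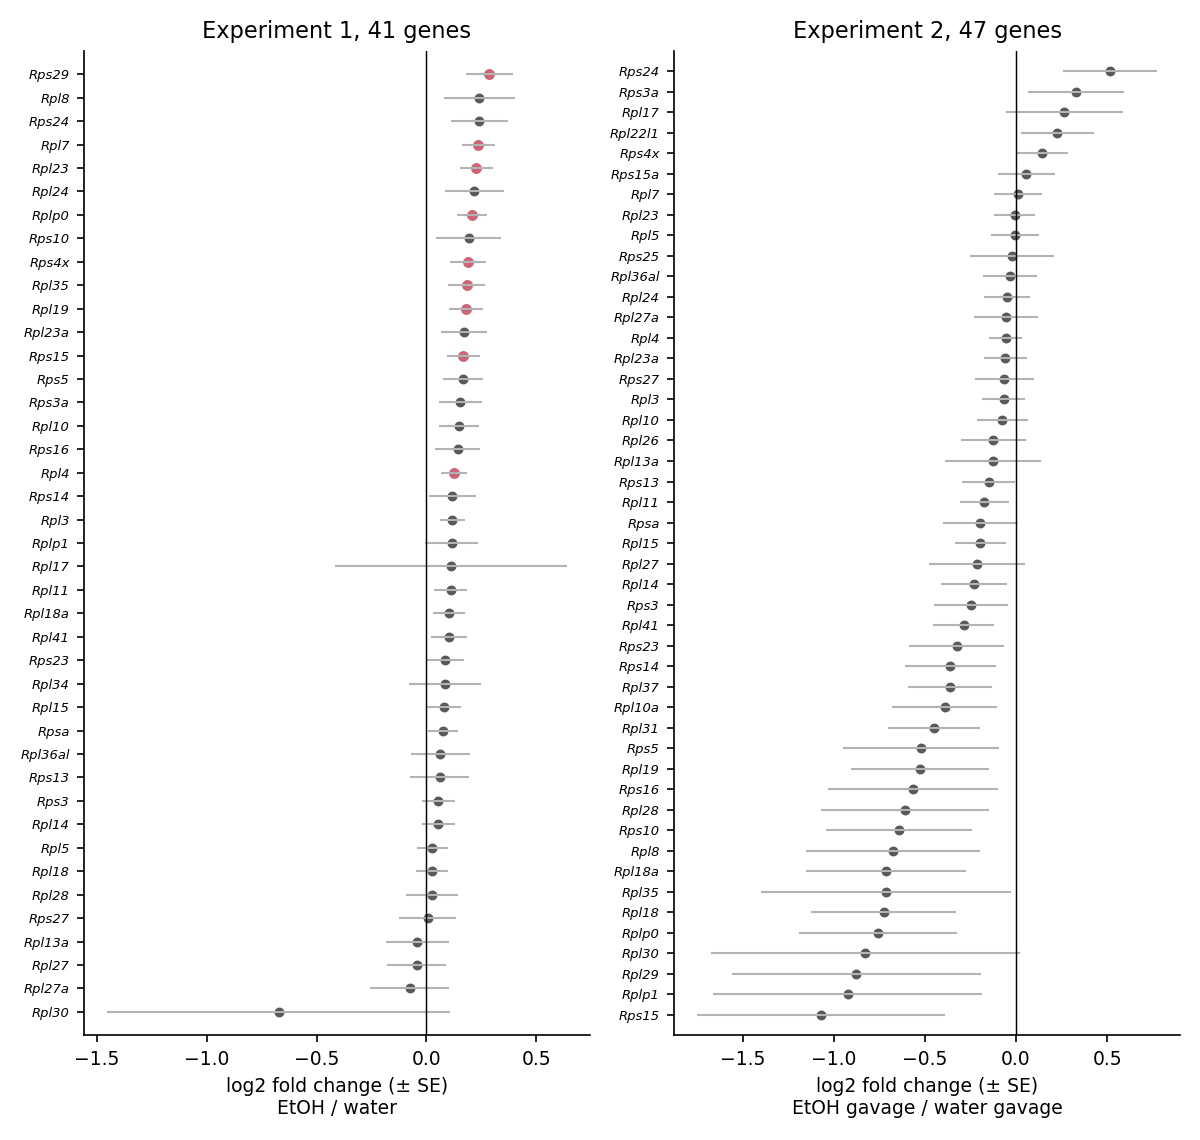
Log2 fold change (EtOH over control, horizontal) with its standard error for 41 of the 42 members tested in experiment 1 (left) and 47 of the 49 tested in experiment 2 (right), sorted by value, with members at an unadjusted P under 0.05 in red. On the left 37 points lie above 0 and 9 are red, and on the right 40 lie below 0 with wider errors and none is red.

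Of the 40 members tested in both experiments, 31 had a higher fitted level in the EtOH group of experiment 1 and a lower one in that of experiment 2. Another 5 were higher in both, 4 were lower in both and 0 were lower in experiment 1 and higher in experiment 2. The contrasts were not the same, since the controls of experiment 2 also drank EtOH, and the difference between the experiments was not tested.

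Variation among the rats of a group was the larger feature of experiment 2. The median SD of log2 CPM within groups was 0.40 for the tested members, against 0.34 for all tested genes. In experiment 1 the corresponding values were 0.13 and 0.16. The distance between the lowest and the highest rat exceeded 2 on the log2 scale, a 4-fold range, for 17 of 49 members (34.7%), against 18.4% of all tested genes. In experiment 1 this held for 2 members (4.76%), Rpl17 and Rpl30, against 0.705% of all tested genes.

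The members ranged from genes that swung widely to genes that held still. The within-group SD was above 0.75 for 14 of the 49 and under 0.3 for 18, and the others lay between. These cuts were not counted over all tested genes, whose median SD was 0.34. Among the 14, Rplp1 ranged from 1.6 to 40.8 CPM (median 11.8) after water gavage and from 1.72 to 21.6 CPM (median 7.63) after EtOH gavage. Rpl35, a protein at the exit tunnel, ranged from 8.67 to 84.8 CPM (median 44) and from 1.59 to 68.5 CPM (median 26.5). For both, the high rats were water gavage 2 and 3 and EtOH gavage 4, and water gavage 1 and EtOH gavage 1 and 2 were the low ones.

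Rps15, a small subunit protein near the site where transfer RNA is decoded, followed the same rats, from 6.14 to 70.1 CPM (median 21.1) after water gavage and from 1.45 to 31.7 CPM (median 14.4) after EtOH gavage. Its log2 fold change of -1.07 ± 0.68 (SE) was the largest of the tested members in size, and its unadjusted edgeR P was 0.14. Rpl29, a large subunit protein also known to bind heparin, ranged from 7.6 to 91.9 CPM (median 27.9) and from 3.77 to 58.6 CPM (median 16.8). Rpl8, near the peptidyl transferase centre, ranged from 12.4 to 58.7 CPM (median 33.8) and from 4.2 to 40 CPM (median 24.1). High and low rats of Rpl29 and Rpl8 were those named for Rplp1.

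The steady members lay beside them in the same libraries. Rpl4 had the smallest within-group SD (0.11) and ranged from 318 to 399 CPM (median 358) after water gavage and from 316 to 368 CPM (median 345) after EtOH gavage. Rpl23 ranged from 159 to 229 CPM (median 179) and from 167 to 210 CPM (median 178), with an SD of 0.17. Rpl23a, also at the exit tunnel, ranged from 61.2 to 89.9 CPM (median 69.1) and from 62.6 to 75.6 CPM (median 71). The rats that were low for Rplp1 lay in the middle or above for Rpl4 and Rpl23, whereas water gavage rat 1 and EtOH gavage rat 2 were also the lowest for Rpl23a, within a far narrower range. Water gavage rat 5 was the highest for Rpl4 and Rpl23.

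Rpl3 was likewise even, with an SD of 0.19, and Rpl5 and Rpl7 had nearly equal group medians. Rpl5 had medians of 198 and 200 CPM and a log2 fold change of -0.01 ± 0.13 (SE). For Rpl7 the medians were 194 and 211 CPM and the log2 fold change was 0.01 ± 0.13 (SE), so the gene with the lowest P of experiment 1 showed no detectable difference in experiment 2. A smaller set went the other way from the swinging genes. Rps4x ranged from 308 to 510 CPM (median 369) and from 371 to 547 CPM (median 411), highest in EtOH gavage rat 1 and lowest in water gavage rat 2. Rps3a, a small subunit protein, ranged from 7.42 to 15.2 CPM (median 9.93) and from 9.17 to 19.4 CPM (median 11.6), highest in EtOH gavage rats 1 and 2.

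The 3 rats that were low for Rplp1 also had the largest shares of reads outside annotated genes, and no correlation was computed. EtOH gavage rat 1 was the lowest of the 12 rats for 30 of the 49 members. Counts of the lowest or highest rat were not made over all tested genes, so they are no trait of the members alone. Reads placed outside annotated genes made up 58.0% of the reads on or outside genes in that rat, 56.4% in EtOH gavage rat 2 and 54.5% in water gavage rat 1, the 3 highest values. The lowest was water gavage rat 2, with 46.1%, followed by water gavage rat 3, with 48.2%. Water gavage rat 2 was the highest of all rats for 15 members, and water gavage rats 3 and 5 for 13 each, although rat 5 stood at 52.8%. In water gavage rat 3, 45 of the 49 members lay above their own median over the 12 rats, against 12 in EtOH gavage rat 1 and 13 in EtOH gavage rat 2. EtOH gavage rat 6 had the fewest, 9, although with 51.1% of reads outside genes it stood between these rats.

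Over all tested genes between 46.5% and 51.8% lay above their median in each rat of experiment 2. As shares of the reads on genes, the 77 members took 0.398 to 0.572% after water gavage (median 0.458%) and 0.316 to 0.510% after EtOH gavage (median 0.432%), lowest in EtOH gavage rat 1 and highest in water gavage rat 3. The means were 0.473% ± 0.0644 (SD, n = 6) and 0.421% ± 0.0700 (SD, n = 6). Microglial markers spread as well, with summed levels of 165 to 391 CPM after water gavage and 109 to 318 CPM after EtOH gavage, as did endothelial markers, with 130 to 329 and 125 to 246 CPM. Cortical neuron markers summed to 5.47 CPM in water gavage rat 1 and to 2.61 and 36.5 CPM in EtOH gavage rats 1 and 2. They were also low in water gavage rat 5, at 1.25 CPM, and stood at 68.4 to 523 CPM in the other rats. The part of these cell types in the spread was not tested.

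**Figure D4:**
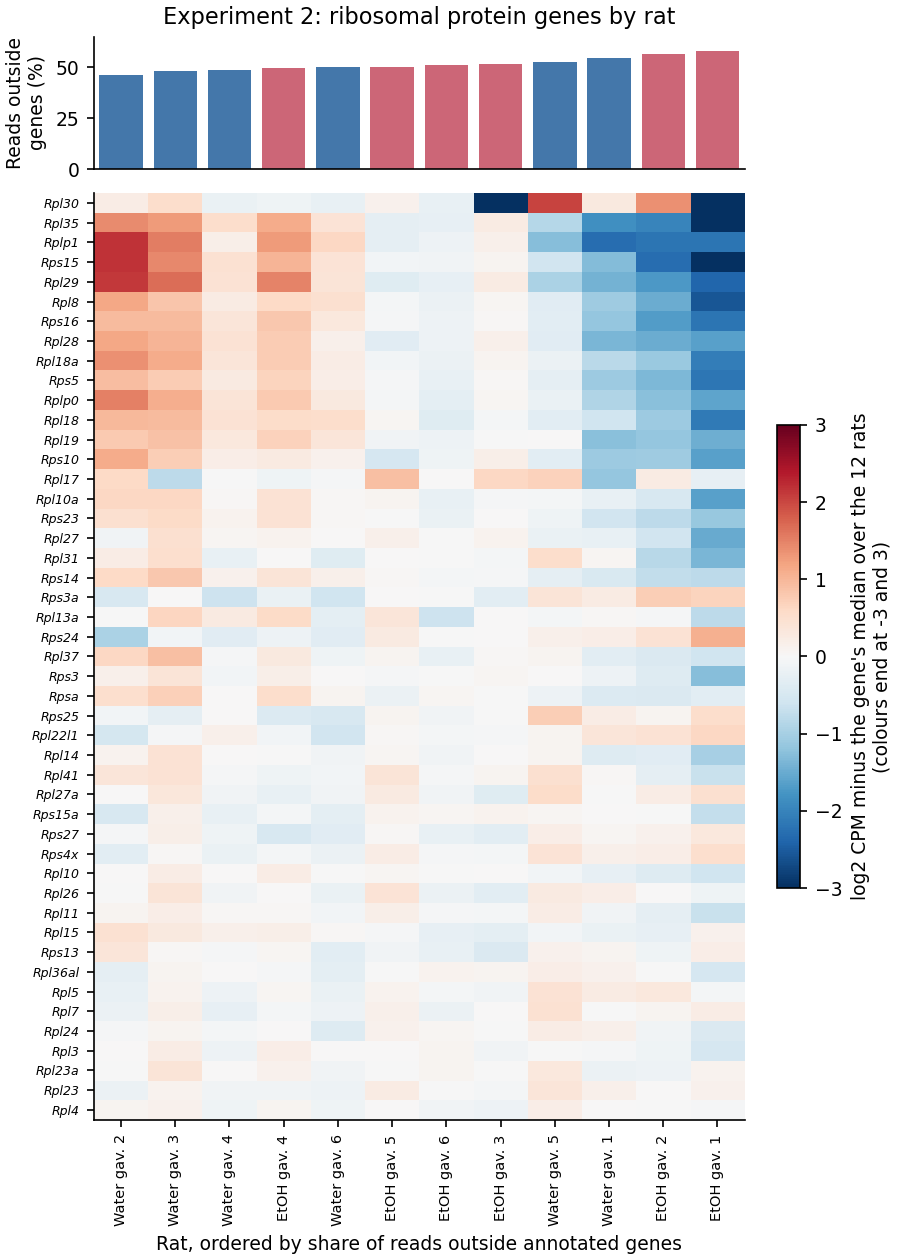
Log2 CPM of 47 of the 49 members tested in experiment 2 minus the median of each gene over the 12 rats (colour, red higher and blue lower, clipped at 3 in either direction), with genes sorted by within-group SD and rats sorted by the percentage of reads outside any gene (bars, %, blue for water gavage and red for EtOH gavage). The upper genes turn from red at the left to blue in water gavage rat 1 and EtOH gavage rats 1 and 2 at the right, Rps24 and Rps3a turn the opposite way, and the lower genes, down to Rpl4, hardly change.

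Rpl30 and Rpl17 were read well in some rats and little or not at all in others. Rpl30, a large subunit protein, had 49, 37, 123, 38 and 78 reads in the water rats of experiment 1 and 75, 0, 0, 99 and 0 reads in the drinkers. Drinkers 2, 3 and 5 thus had no read, while drinkers 1 and 4 had more CPM than any water rat. For counting error alone, a count of 0 allows up to 3 reads. In experiment 2, Rpl30 had 0 reads in EtOH gavage rat 1, 2 in EtOH gavage rat 3 and 346 in water gavage rat 5. Rats without reads were thus found in the EtOH groups of both experiments and in neither control group. The fold changes, -0.67 ± 0.78 (SE) and -0.83 ± 0.85 (SE) on the log2 scale, had unadjusted edgeR P of 0.403 and 0.347.

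Rpl17, which lines the exit of the tunnel, fell into high and low rats in experiment 1 without regard to group. The water rats had 49, 91, 23, 91 and 33 reads and the drinkers 12, 93, 112, 88 and 17 reads. Low rats occurred in both groups, and the log2 fold change was 0.11 ± 0.53 (SE), with an unadjusted edgeR P of 0.837. In experiment 2, Rpl17 ranged from 9.47 to 34.7 CPM (median 21.2) and from 18 to 40.4 CPM (median 23.5). Its within-group SD on the log2 scale was 1.23 in experiment 1 and 0.61 in experiment 2. The rats low for Rpl17 in experiment 1 were not the rats without Rpl30, except drinker 5.

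**Figure D5:**
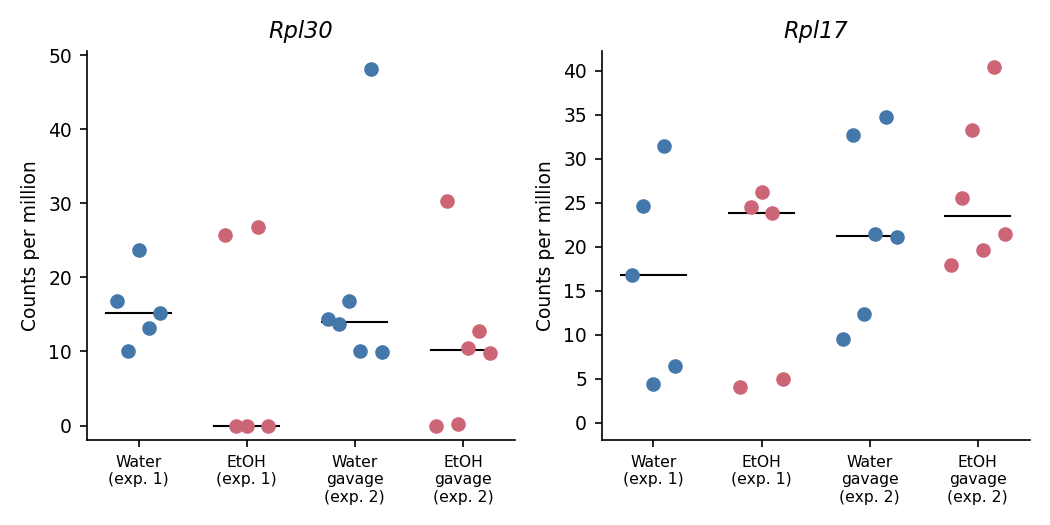
CPM of Rpl30 (left) and Rpl17 (right) in each rat, by group, with a line at the group median. Rpl30 is at 0 in 3 drinkers of experiment 1 and at or near 0 in 2 EtOH gavage rats, while Rpl17 has low rats in both groups of experiment 1.

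Paralogues of ribosomal proteins, which replace their parent in some tissues, took few reads in the NAc. Rpl36al, a copy of Rpl36a, was tested in both experiments, with log2 fold changes of 0.06 ± 0.13 (SE) and -0.03 ± 0.15 (SE), while Rpl36a itself never exceeded 6 reads in experiment 1 and 14 reads in experiment 2. Rpl22l1, the paralogue of Rpl22, was tested in experiment 2, with a median of 24.1 CPM after water gavage and 23.6 CPM after EtOH gavage and a log2 fold change of 0.23 ± 0.20 (SE). It was highest in EtOH gavage rats 1 and 2, in which Rpl22 was lowest, at 1.74 and 5.01 CPM. Rps27l, a p53 target related to Rps27, stood at 4.62 to 12.5 CPM in experiment 2 and was not tested. The tissue-restricted genes Rpl3l, known from heart and skeletal muscle, and Rpl39l, known from testis, had at most 7 and 10 reads in any rat, and Rps4y2, a copy of Rps4x, at most 8.

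Among the ribosomal proteins missed by the symbol rule, Gnb2l1, a scaffold on the small subunit, had a log2 fold change of 0.14 ± 0.07 (SE) in experiment 1. In experiment 2 its value was -0.36 ± 0.26 (SE), with an unadjusted edgeR P of 0.187. Fau was not tested in either experiment.

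Genes that act with the ribosome differed in how far they shared these patterns. Of the 7 elongation factor genes, 6 had a higher fitted level in the drinkers of experiment 1, with a median log2 fold change of 0.08, and 5 had a lower level after EtOH gavage, with a median of -0.23. None had an unadjusted P under 0.05. Eef2, which moves the ribosome along the mRNA, had a mean of 850 ± 435 CPM (SD, n = 6) after water gavage and 564 ± 357 CPM (SD, n = 6) after EtOH gavage, so its spread among rats was wide as well. Eef1a1, which delivers transfer RNA and whose mRNA carries a TOP tract, had means of 432 and 470 CPM.

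Initiation factors and ribosome assembly genes did not follow the members. Of the initiation factor genes 15 of 25 had a higher fitted level in experiment 1 and 14 of 27 in experiment 2, with median log2 fold changes of 0.01 and 0.08. Ribosome assembly genes had 12 of 29 and 19 of 27 with a higher level, with medians of -0.02 and 0.08. The mTOR pathway had 8 of 13 and 3 of 13, with medians of 0.01 and -0.26. In the other TOP mRNAs the counts were 6 of 9 and 7 of 9, with medians of 0.04 and 0.12. The proteins of the mitochondrial ribosome, a list added after the counts had been seen, had 27 of 61 and 29 of 59 with a higher level and medians of -0.0095 and -0.011. Across these 5 lists an unadjusted P under 0.05 was found for 3 genes in experiment 1 and 1 in experiment 2, and none passed an FDR of 0.05.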

How the data were processed

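PolyA+ RNA from the NAc of 22 rats was sequenced. Alignment was to the rn6 build by TopHat2 2.0.13, and the submitters' processing notes also name HTSeq 0.5.3p3 and 0.6.0 and DESeq2 1.6.2. The authors deposited the htseq-count read count per gene and sample, neither normalized nor filtered. Reads aligned to several places are in a line of their own and in no gene, which can lower the counts of genes with near-identical copies. Its part in the low counts here was not tested. Options of htseq-count and the release of the annotation are not given in the sources used here. The 5 lines that name no gene were left out of library sizes and tests. Of the reads on or outside genes, between 46.1% and 58.0% lay outside annotated genes.

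Each sample's label gave its group and replicate number. For the schedule of experiment 2, the weeks of the drinking and gavage periods were used, although a single housing time of 8 weeks is also stated. Each experiment was fitted on its own in edgeR 4.0.16 (R 4.3.3) with TMM factors, glmQLFit and glmQLFTest, on the genes with a DESeq2 1.42.0 base mean above the median over all 17310 listed genes (43.6 and 66.4). The FDR is the Benjamini-Hochberg adjusted P over all 8655 tested genes. Standard errors were obtained as the size of the log2 fold change over the square root of F. CPM used TMM-scaled library sizes, and log2 CPM a prior count of 2. The replicates are separate rats. Counts of members and medians are descriptions without a test. The fits were tested on simulated data. A few genes counted in the totals are not reported here by name, in the text or the plots.

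The members, gene lists and tests were chosen with earlier results of these data known. Members were named when among the 5 with the lowest P or the most reads, the 3 with the largest or smallest SD, the stalk and 5S genes, Rpsa and paralogues. Rpl19, Rps15, Rpl35, Rpl29, Rpl8, Rps3a and the genes named for unlike counts between experiments were chosen after their values were seen. Promoter sequences and copy symbols come from RefSeq annotation of GRCr8, which differs from the build of the files and was used for names and start sites alone.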

Additional observations from a re-analysis of the deposited data

Results flagged for a closer look

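Of 78 groups of 5 or 6 rats, 2 held a rat far from the others by Dixon's criterion. About 3.9 would be expected by chance at 1 in 20. The groups covered the tested members with the lowest P, the most reads or the largest or smallest SD, the stalk and 5S genes and Rpsa. They also covered the share of reads on the members and the share outside genes. Rpl7 was at 141 CPM in EtOH drinker 2 of experiment 1, and at 156 to 162 CPM in the other drinkers. Rpl30 was at 48.2 CPM in water gavage rat 5 of experiment 2, and at 9.97 to 16.8 CPM in the other water gavage rats.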

How the results depend on the processing

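In all alternatives 0 members passed an FDR of 0.05. In experiment 1 the median log2 fold change stayed between 0.09 and 0.15 with each rat left out, and 5 to 11 members had an unadjusted P under 0.05 (5 without water rat 4, EtOH rat 1 or EtOH rat 4). Of all 8655 tested genes, 203 to 400 were higher and 176 to 343 lower with such a P, both largest without water rat 5. The replicate block gave 6 members with such a P in experiment 1 and 2 in experiment 2. DESeq2 gave 1 member in experiment 2, where 158 of 14110 genes were higher and 157 lower with such a P. Of all 8655 tested genes, the block gave 266 higher and 210 lower with such a P in experiment 1, and 122 and 292 in experiment 2. Rats with the same number shared no deviation throughout (r from -0.125 to 0.144 in experiment 1 and from -0.759 to 0.835 in experiment 2), so the numbers were not taken to pair the samples. In experiment 2, leaving out each rat gave 0 to 6 members with such a P, 5 to 12 with a higher level and a median of -0.28 to -0.14. Of all 8655 tested genes, 4189 to 4396 had a higher level in these fits. The 6 came without EtOH gavage rat 4, where 256 of all tested genes were higher and 520 lower with such a P. The number of members with a higher level was 18 of 74 with DESeq2 or with no filter. Over all genes it was 7100 of 14110 with DESeq2 and 7115 of 14121 with no filter. The 74 include members with very few reads, such as Rpl7a with at most 1 read in any rat. It was 21 of 49 members with the share of reads outside genes as a covariate and 12 without the 3 rats with the largest share. Of all 8655 tested genes, 3987 and 3962 had a higher level in these 2 fits. The covariate turned the log2 fold change of Rpl3 (0.026), Rps4x (-0.017), Rpl7 (-0.077), Rplp1 (0.48) and Rpsa (0.087). Leaving out the 3 rats turned Rpl3 (0.033) and Rpl7 (-0.051). Rpl5 was 0.0208 with DESeq2, 0.0207 with its size factors, 0.0213 with no filter and 0.0058 with the block. With each rat left out the log2 fold change of Rps3 in experiment 1 was -0.00035 to 0.089, and in experiment 2 that of Rpl3 was -0.13 to 0.011, of Rpl7 -0.039 to 0.12 and of Rpl5 -0.066 to 0.079. The cause of these changes was not tested. The other 698 values kept their direction or lay within the spread between rats, or for counts within 1.5 times, although the covariate brought the median of experiment 2 to -0.024. Members with few reads, or with reads shared among copies, could not be assessed at this depth.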
